A study of Drosophila melanogaster with 6 samples.

Results

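The genes described here handle iron, copper and zinc in the adult hindgut: the ferritin subunits *Fer1HCH* and *Fer2LCH*, the transferrins *Tsf1* and *Tsf3*, the divalent metal transporter *Mvl*, the metallothioneins *MtnA*, *MtnB* and *MtnC*, the copper importer *Ctr1A* and the zinc transporter *ZnT35C*. They were taken as a list of 10 symbols, matched to 10 of the 17617 gene identifiers in the files. RNA was isolated from 100 hindguts per library, in 3 libraries of *RasV12* hindguts, which carry U-RasV12, and 3 of control hindguts, which do not. Both genotypes carry byn-G4, tub-G80ts and U-gfp. Adult females were aged for 3 to 5 days, and flies reared at 18°C were kept for 7 days at 29°C. *byn-Gal4* drives its targets in hindgut enterocytes, *tub-Gal80ts* is a temperature-sensitive repressor that holds Gal4 off at the lower temperature, and every library carries the GFP reporter. *RasV12* encodes a Ras GTPase locked in its active state. The RNA came from hindguts, which the labels call enterocytes and muscle, so the transgene was on in only some of the cells measured. The comparison asks which of these genes changed in hindguts whose enterocytes express the oncogene.

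Iron, copper and zinc are cofactors that are toxic in excess, and cells import, store and export them with dedicated proteins. Insect ferritin is assembled from heavy chains, which oxidise ferrous iron, and light chains, which help its core to form, and it passes through the secretory pathway, while transferrins bind iron in body fluids. Metallothioneins are very small, cysteine-rich proteins that bind copper, zinc and cadmium, and the transcription factor MTF-1 switches on their genes when metals are abundant. In flies *Tsf1* is also known as a gene induced by infection, and its product moves iron out of the haemolymph.

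Values are normalized counts, that is, 3′ end reads per gene that the authors multiplied by 1 factor per library and rounded. Totals lay between 997131 and 1031380 in *RasV12* libraries and between 932389 and 1011488 in control libraries. The whole numbers that occur imply from 988982 to 1402435 and from 686569 to 1048807 reads on genes, so low values in control replicates 1 and 3 are coarse. *Ras85D*, the gene of the transgene, had 85, 96 and 105 normalized counts in *RasV12* and 55, 48 and 54 in control hindguts (log2 fold change 0.85, limma's adjusted p = 0.0455), and lost this call whichever of the 6 libraries was left out. Whether the transgene carries the end of the gene that these libraries read was not examined. The hindgut factors *byn* and *otp* were present in every library at lower values in *RasV12* hindguts, with *byn* at 60, 144 and 97 against 299, 283 and 450 normalized counts, while *bowl* had 28, 30 and 58 against 18, 30 and 35, *Dr* did not exceed 1 and *en* was listed at 0 in all 6 libraries. The 8 visceral muscle genes listed summed to between 2259 and 2575 normalized counts in *RasV12* and between 7366 and 8358 in control hindguts. Of the 8, 7 fell with limma's adjusted p under 0.05, against 7.7% of all genes tested. Control replicate 3 was the library least like its own group, with Pearson correlations of log2 values across genes of 0.832 and 0.869 with the other control libraries, against 0.905 to 0.918 among *RasV12* libraries and 0.895 between control replicates 1 and 2.

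Fold changes are differences of log2(normalized count + 1), *RasV12* minus control, tested with limma over 7155 genes with a value above 9 in 1 or more libraries (9 is the median value of genes that were detected at all). Of the 10 metal genes, 4 rose in *RasV12* hindguts with an adjusted p under 0.05, against 9.04% of all genes tested, and 0 fell, against 7.7%. The 4 were *Tsf1*, *Tsf3*, *MtnB* and *Fer2LCH*. An unadjusted p under 0.05 was found for 5, the same 4 and *Fer1HCH*, all higher in *RasV12* hindguts, against 30.1% of all genes tested. On the deposited values limma-voom called 2, *Tsf1* and *Tsf3*, against 14.1%. In 5 genes, these 4 and *Fer1HCH*, every *RasV12* library lay above every control library, which held for 17.7% of all genes tested. The median log2 fold change was 0.72 over the 10 genes and 0.02 over all genes tested. The 10 genes were chosen with earlier results of these data known, so these counts describe the list and cannot test it as a set. All 10 were tested, but *MtnB* passed the filter through *RasV12* libraries alone and *ZnT35C* through control replicate 1 alone, so the filter favours a difference in both. The number of metal genes called lay between 2 and 5 when a library was left out, and it was 2 without *RasV12* replicate 1 or 2.

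**Figure D1:**
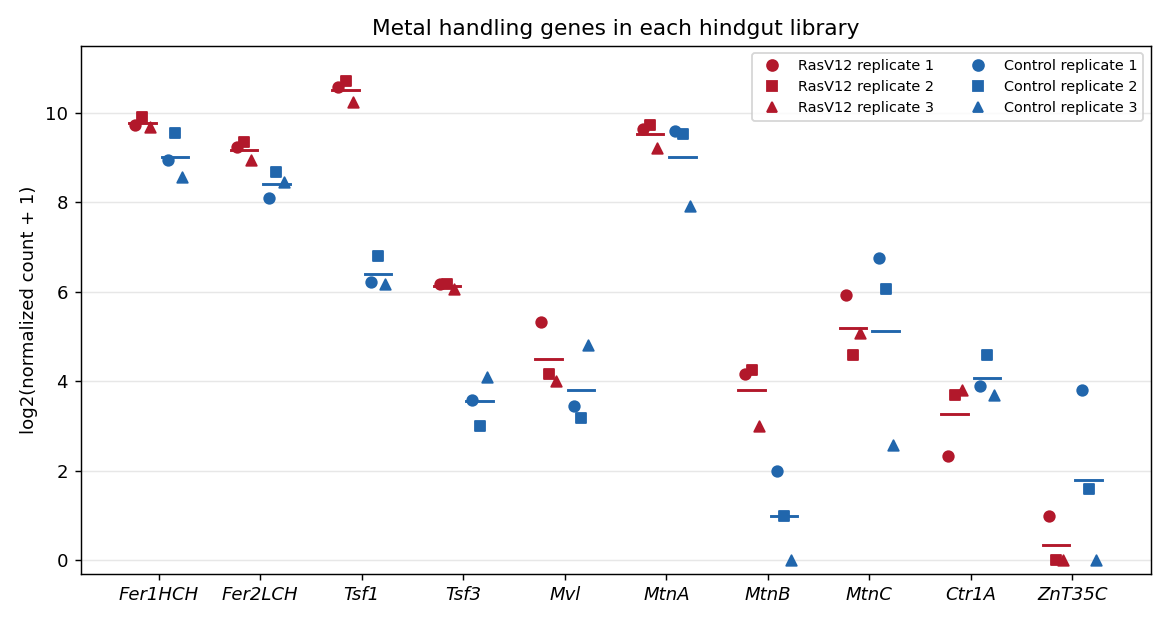
Normalized counts of the 10 metal genes on a log2(value + 1) axis, with *RasV12* libraries in red left of control libraries in blue, a marker shape for each replicate and a line at the mean of the log2 values. *Tsf1*, *MtnB* and *Tsf3* show the widest gaps between genotypes, whereas for *MtnC* control replicate 3, at 5 normalized counts, lies far under the other control libraries.

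**Figure D2:**
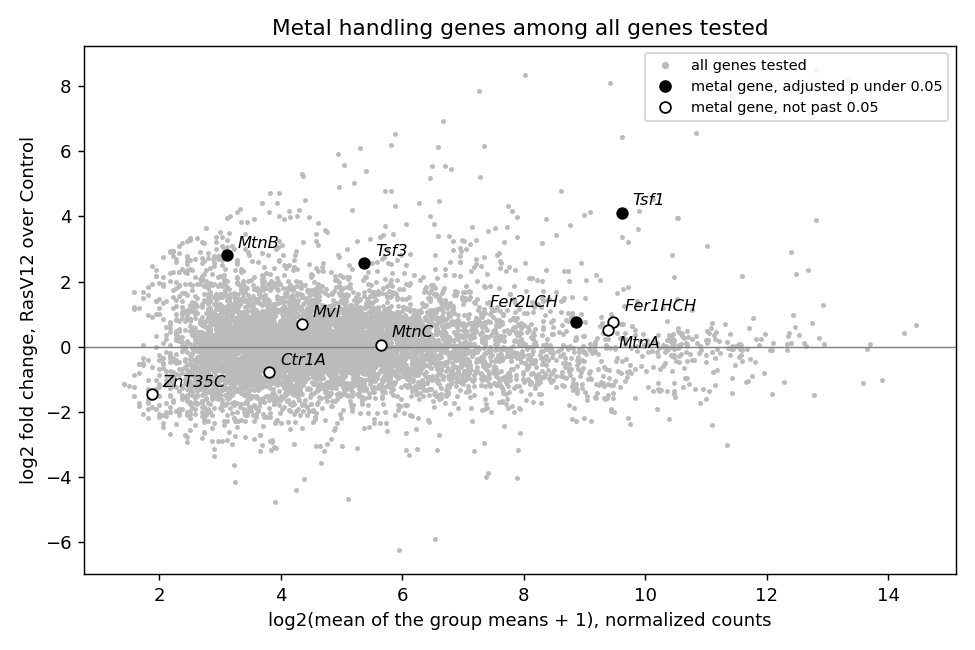
Log2 fold change (*RasV12* over control) against log2 of the mean of the group means plus 1, with the 7155 genes tested in grey and the 10 metal genes in black (filled where the adjusted p was under 0.05). *Tsf1* stands apart at a log2 fold change of 4.12, and the ferritin genes and *MtnA* are highly expressed genes between 0.51 and 0.77.

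Among the transferrins, *Tsf1* and *Tsf3* rose and *Tsf2* did not pass the test. *Tsf1* (FBgn0022355), which encodes the secreted iron-binding transferrin of the haemolymph, had 1521, 1692 and 1220 normalized counts in *RasV12* hindguts, against 74, 110 and 71 in control hindguts. The lowest *RasV12* library was more than 10 times as high as the highest control library, and the spread within each genotype was small beside that gap. The means were 1478 ± 239 and 85.0 ± 21.7 normalized counts (SD, n = 3 each), a 17.4-fold difference. The log2 fold change of *Tsf1* was 4.12 (standard error 0.24, 95% interval 3.60 to 4.64, limma's adjusted p = 1.00e-07), which placed it 48th from the top among the 7155 genes tested. It kept its direction and its call in 18 of the 18 alternative fits, where it lay between 4.01 and 4.32. The gene is at 18387084 to 18390344 of chromosome X (BDGP6.54, plus strand), has 5 exons and overlaps no other annotated gene. Its nearest neighbour, *Nt5b*, lies 153 bases away.

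*Tsf1* is known as a product of the fat body, so markers of that tissue and of blood cells were read in the same libraries. The 7 fat body genes listed, which include the yolk protein genes that the ovary also expresses, summed to 2710, 2104 and 4119 normalized counts in *RasV12* and to 5374, 10427 and 3942 in control hindguts. None of the 4 that could be tested rose, against 9.04% of all genes tested, and 2, the yolk protein genes *Yp1* and *Yp2*, fell, against 7.7%. *Lsp2*, a storage protein gene of the fat body, had at most 1 normalized count in *RasV12* libraries, against 4, 5 and 1 in control libraries, and *Fbp1* was listed at 0 throughout. The 5 blood cell genes summed to between 2 and 9 normalized counts in either genotype, with *NimC1* and *eater* listed at 0 in all 6 libraries. The part of fat body or blood cell RNA in the values of *Tsf1* was not tested. In bulk RNA, fewer cells of a type and less RNA per cell cannot be told apart.

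*Tsf3* (FBgn0034094), another member of the transferrin family, had 71, 71 and 66 normalized counts in *RasV12* hindguts and 11, 7 and 16 in control hindguts. All *RasV12* libraries lay within 5 counts of each other and above every control library. Its mean was 69.3 ± 2.89 against 11.3 ± 4.51 normalized counts (SD, n = 3 each). The log2 fold change of *Tsf3* was 2.58 (standard error 0.38, 95% interval 1.76 to 3.39, limma's adjusted p = 0.000431), and the gene kept its call in 18 of 18 alternative fits. *Tsf3* lies on chromosome 2R from 16226501 to 16229869 on the plus strand, wholly within the span of *CG15706* on the minus strand, with which it shares 169 exonic bases. *CG15706* had 20, 13 and 28 normalized counts in *RasV12* and 17, 24 and 13 in control hindguts, with overlapping genotypes. Strand use in counting is not given in the sources used here, so reads of *Tsf3* and *CG15706* may not be fully separated.

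The third transferrin gene, *Tsf2*, encodes the fly melanotransferrin, which is known to be needed for septate junctions. It had 43, 25 and 33 normalized counts in *RasV12* hindguts and 28, 13 and 16 in control hindguts, with overlapping genotypes. Its log2 fold change was 0.83 (95% interval −0.05 to 1.71, limma's adjusted p = 0.19). Reads of 3′ end libraries do not grow with transcript length, so values of *Tsf1* and *Tsf3* could be set against each other within a library. The normalized counts of *Tsf1* were 21.4, 23.8 and 18.5 times those of *Tsf3* in *RasV12* hindguts, against 6.73, 15.7 and 4.44 times in control hindguts. The genotypes did not overlap. With 1 added to each normalized count, the log2 ratio was higher by 1.54 in *RasV12* hindguts (two-sided exact permutation test, p = 0.1, the smallest that 3 libraries against 3 allow, and 0.2 adjusted over the 2 ratios examined). The difference was 1.49 with 0.5 added and 1.83 with 5 added. This ratio was chosen after its values were seen, with the genotypes already known not to overlap. Its p-value could therefore only be the smallest possible and is no test. The ratio restates the gap between the log2 fold changes of *Tsf1* and *Tsf3*, and it carries the doubt about reads of *CG15706*.

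Both ferritin genes were higher in every *RasV12* library than in any control library, by 1.62-fold for *Fer1HCH* and 1.69-fold for *Fer2LCH* in the ratio of means. *Fer1HCH* (FBgn0015222), the heavy chain, had 847, 959 and 829 normalized counts in *RasV12* hindguts, against 490, 754 and 381 in control hindguts. The control libraries were the more variable, and control replicate 2 came close to the *RasV12* range. The means were 878 ± 70.4 and 542 ± 192 normalized counts (SD, n = 3 each). The log2 fold change of *Fer1HCH* was 0.75 (standard error 0.25, 95% interval 0.22 to 1.28, limma's adjusted p = 0.0526), just short of the threshold. It passed in 4 of 18 alternative fits, with the lowest adjusted p, 0.0145, without control replicate 2.

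*Fer2LCH* (FBgn0015221), the light chain, had 601, 652 and 496 normalized counts in *RasV12* hindguts, against 275, 411 and 349 in control hindguts. Its means were 583 ± 79.5 and 345 ± 68.1 normalized counts (SD, n = 3 each). The genotypes did not overlap, and the log2 fold change of *Fer2LCH* was 0.77 (standard error 0.22, 95% interval 0.28 to 1.25, limma's adjusted p = 0.0321). This call was lost in 7 of 18 alternative fits, among them those without *RasV12* replicate 1 (limma's adjusted p = 0.0859), *RasV12* replicate 2 (0.139) or control replicate 1 (0.107). It was also lost with all 6 libraries when no variance trend was used (limma's adjusted p = 0.154) or library totals were made equal (0.0518). The same held for limma-voom on deposited values (adjusted p = 0.0566) and on implied reads (0.0582). The fold changes of the subunits, 0.75 and 0.77, differed by much less than their standard errors, although the heavy chain missed and the light chain passed the threshold. Beside these differences stands the lower summed value of visceral muscle genes in *RasV12* hindguts given above, whose part in them was not tested.

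The ferritin genes lie side by side on chromosome 3R, *Fer1HCH* from 30385573 to 30388178 on the minus strand and *Fer2LCH* from 30387804 to 30390584 on the plus strand. They overlap head to head by 375 bases, of which 118 are exonic in both. The 3′ ends, which these libraries read, point away from each other, and 0 of the annotated ends of either gene fall within the other. The heavy chain had 1.41, 1.47 and 1.67 times the normalized counts of the light chain in *RasV12* hindguts, against 1.78, 1.84 and 1.09 times in control hindguts. These within-library ratios, which do not depend on scaling between libraries, overlapped between genotypes. With 1 added to each normalized count, the log2 ratio differed by −0.01 (two-sided exact permutation test, p = 1). The sign of this difference turned in 4 of the 6 comparisons that left out a library, with differences from −0.26 to 0.12. A shift in the balance of the subunit transcripts was thus not detectable with 3 libraries per genotype.

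*Mvl* (FBgn0011672), the fly relative of the NRAMP transporters that carry iron and manganese across membranes, had 39, 17 and 15 normalized counts in *RasV12* hindguts and 10, 8 and 27 in control hindguts. *RasV12* replicate 1 and control replicate 3 were each the high library of their genotype, and the genotypes overlapped. Its log2 fold change was 0.69 (95% interval −0.46 to 1.83, limma's adjusted p = 0.422). The gene has 12 exons in its longest model and lies on chromosome 3R from 21051383 to 21060800.

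Of the metallothionein genes *MtnB* rose, whereas *MtnA* and *MtnC* did not pass the test. *MtnA* (FBgn0002868, 3R, 9783407 to 9784370, minus strand) had 795, 843 and 595 normalized counts in *RasV12* hindguts, against 769, 742 and 241 in control hindguts. Without control replicate 3 the control values would lie inside the *RasV12* range. The log2 fold change of *MtnA* was 0.51 (95% interval −0.27 to 1.29, limma's adjusted p = 0.376), and it was −0.037 without control replicate 3.

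*MtnB* (FBgn0002869, 3R, 20503102 to 20503746, minus strand) had 17, 18 and 7 normalized counts in *RasV12* hindguts and 3, 1 and 0 in control hindguts. These values correspond to about 24, 18 and 10 reads against 2, 1 and 0, so the gene was near the limit of detection in control hindguts. The rate of reads was 11.4-fold higher in *RasV12* hindguts, with an exact 95% interval of 3.69 to 57 that covers counting error only. On the log2(value + 1) scale the change was 2.81 (standard error 0.77, with limma's adjusted p at 0.0244). The call was lost in 5 of the 16 alternative fits that could test the gene, among them those without *RasV12* replicate 1 (limma's adjusted p = 0.128), *RasV12* replicate 2 (0.136) or control replicate 2 (0.0504).

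*MtnC* (FBgn0038790, 3R, 20360308 to 20360634, plus strand) had 60, 23 and 33 normalized counts in *RasV12* hindguts, against 107, 66 and 5 in control hindguts. Control replicates 1 and 2 were above every *RasV12* library and control replicate 3 was below every one. The log2 fold change of *MtnC* was 0.07 (95% interval −1.66 to 1.79, limma's adjusted p = 0.967). Without control replicate 3 it was −1.21 with an adjusted p of 0.0434 in limma, and without *RasV12* replicate 1 it was −0.30 with an adjusted p of 0.872, so that its direction depends on single libraries of either genotype.

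Control replicate 3 was also the lowest library for the other metallothionein genes with appreciable values. *MtnD* had 12, 7 and 2 normalized counts in *RasV12* and 20, 10 and 0 in control hindguts, and *MtnE* had 36, 14 and 21 against 35, 30 and 7. Neither passed 0.05, and the last gene of the family, *MtnF*, did not exceed 3 normalized counts. The sum over the 6 metallothionein genes was 920, 905 and 659 normalized counts in *RasV12* hindguts, against 934, 849 and 256 in control hindguts. The same control library had the lowest sum of the 11 midgut digestive enzyme genes listed, which was 110, 205 and 111 in *RasV12* and 140, 102 and 14 in control libraries. Of those enzyme genes 6 were listed at 0 everywhere, and the trypsin gene *alphaTry* carried most of the sum. The part of midgut RNA in the metallothionein values was not tested.

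**Figure D3:**
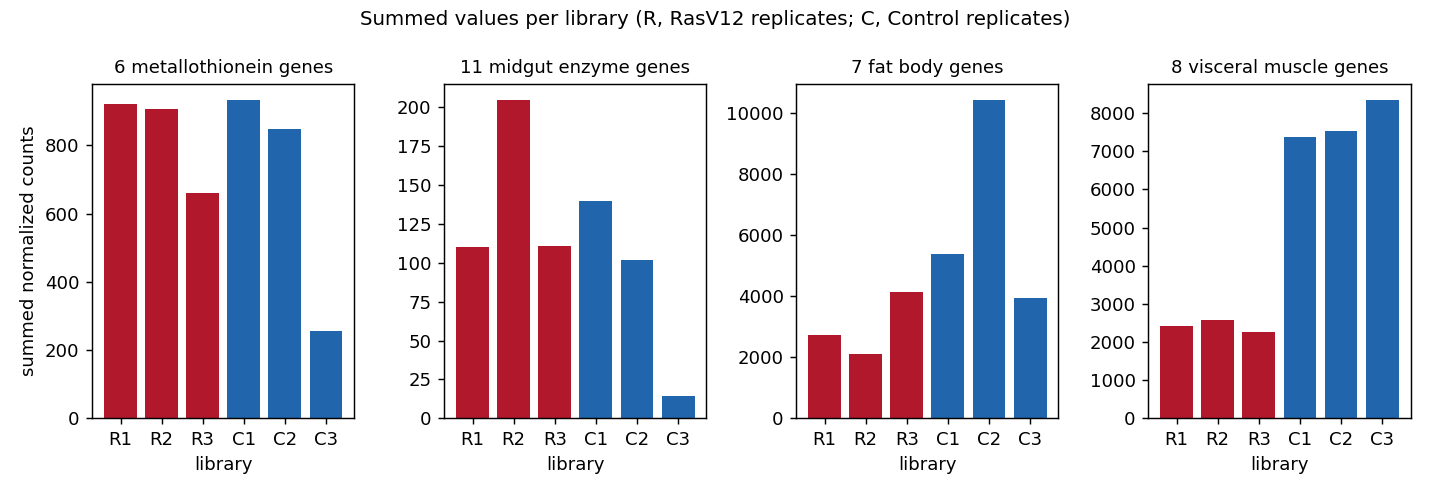
Bars give the summed normalized counts in each library of the 6 metallothionein genes, the 11 midgut enzyme genes, the 7 fat body genes and the 8 visceral muscle genes, with *RasV12* libraries (R1 to R3) in red left of control libraries (C1 to C3) in blue. Control replicate 3 is lowest for metallothioneins (256) and midgut enzymes (14), and visceral muscle sums are lower in all *RasV12* libraries.

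The copper importer and the zinc transporter had low values. *Ctr1A* (FBgn0062413, X, 6661647 to 6668258), a copper importer of the plasma membrane, had 4, 12 and 13 normalized counts in *RasV12* hindguts, against 14, 23 and 12 in control hindguts, with overlapping genotypes. Its log2 fold change was −0.79 (95% interval −1.95 to 0.37, limma's adjusted p = 0.357). *ZnT35C* (FBgn0028516, 2L, 15228728 to 15247714), known as a zinc transporter of the Malpighian tubules, had 1, 0 and 0 normalized counts in *RasV12* hindguts and 13, 2 and 0 in control hindguts. Control replicate 1 alone held most of its reads. Its log2 fold change was −1.46 (95% interval −4.14 to 1.22, limma's adjusted p = 0.466), an interval wide enough to hold a rise or a fall. The 5 Malpighian tubule genes listed summed to 2, 5 and 6 normalized counts in *RasV12* and 9, 8 and 1 in control libraries, and the part of tubule RNA in the *ZnT35C* values was not tested.

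The wider set of metal genes showed few calls. Of 38 further iron, copper and zinc genes listed, 31 could be tested, of which 0 rose, against 9.04% of all genes tested, and 1 fell, against 7.7%. An unadjusted p under 0.05 was found for 4 of the 31, against 30.1% of all genes tested, and limma-voom on the deposited values likewise called *nemy* alone, against 14.1%. Their median log2 fold change was 0.15, with 18 higher and 13 lower, against 3635 and 3520 of all genes tested. Every *RasV12* library lay above every control library in 4 of the 31, against 17.7% of all genes tested. Every *RasV12* library lay below in 3, against 15.3%, so the separations named below were no more frequent than among all genes. The gene that fell was *nemy*, which encodes a cytochrome b561, a family of electron carriers that includes ferric reductases. It had 8, 16 and 21 normalized counts in *RasV12* hindguts and 38, 35 and 44 in control hindguts, without overlap. Its log2 fold change was −1.41 (standard error 0.41, with limma's adjusted p at 0.0327), a call lost on leaving out any 1 library other than *RasV12* replicate 3, with the highest adjusted p, 0.116, without *RasV12* replicate 1.

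Of the 9 further iron genes tested, the 2 of haem synthesis had the highest values. *FeCH*, ferrochelatase, which inserts iron into haem, had 156, 205 and 232 normalized counts in *RasV12* hindguts, against 121, 107 and 145 in control hindguts. The genotypes did not overlap, and its log2 fold change was 0.66 (95% interval 0.11 to 1.20, limma's adjusted p = 0.0962). *Alas*, which makes the first precursor of haem, had 80, 93 and 102 against 90, 150 and 158 normalized counts, with −0.49 as its log2 fold change (95% interval −1.10 to 0.12, limma's adjusted p = 0.265). The iron regulatory protein genes *Irp-1A* and *Irp-1B* had log2 fold changes of 0.43 and 0.07, and the mitochondrial iron genes *mfrn* and *fh* of −0.30 and −0.47, with limma's adjusted p from 0.403 to 0.925. These 4 genes were named after their values were seen, as were the copper and zinc genes that follow other than *Zip89B*.

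Among 7 copper genes tested, *Atox1*, a chaperone that hands copper to the pump ATP7, had 112, 111 and 110 normalized counts in *RasV12* hindguts, against 37, 81 and 78 in control hindguts. All *RasV12* libraries were above all control libraries, but its log2 fold change of 0.84 had a limma adjusted p of 0.0958. *ATP7* itself had 7, 5 and 4 against 8, 11 and 7 normalized counts, with −0.62 as its log2 fold change (limma's adjusted p = 0.511). It passed the filter through control libraries alone. *MTF-1*, the activator of metallothionein genes, had 18, 21 and 21 against 31, 28 and 28 normalized counts. Its genotypes did not overlap, and its log2 fold change was −0.52 (95% interval −1.28 to 0.25, limma's adjusted p = 0.357). *Cox17*, the gene of a mitochondrial copper chaperone, likewise had lower values without overlap, 48, 32 and 36 against 53, 52 and 62 normalized counts (log2 fold change −0.53, limma's adjusted p = 0.272).

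Of 13 other zinc transporter genes tested, 8 had a log2 fold change above 0 and 5 below, against 3635 and 3520 of the 7155 genes tested. In limma 0 of the 13 had an adjusted p under 0.05, against 16.7% of all genes tested. For 1 of them the unadjusted p was under 0.05, against 30.1%. *ZnT86D*, a zinc transporter of the secretory pathway, had 14, 18 and 37 normalized counts in *RasV12* hindguts, against 7, 5 and 9 in control hindguts. The genotypes did not overlap, and its log2 fold change was 1.50 (95% interval 0.40 to 2.59, limma's adjusted p = 0.0595). *ZnT86D* passed the filter through *RasV12* libraries alone, so the filter favours a difference in it. *Zip102B* had 47, 57 and 59 against 35, 37 and 32 normalized counts (log2 fold change 0.63, limma's adjusted p = 0.182). *Zip89B*, a zinc importer and the zinc gene with the highest mean, had 71, 96 and 48 against 164, 108 and 74 normalized counts, with −0.66 as its log2 fold change (95% interval −1.40 to 0.08, limma's adjusted p = 0.221). Without control replicate 3, *Mco1* (−1.97), *Atox1* (1.00) and *ZnT86D* (1.68) were the wider metal genes past 0.05, with limma's adjusted p of 0.0183, 0.0463 and 0.0434, and *nemy* was not among them.

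**Figure D4:**
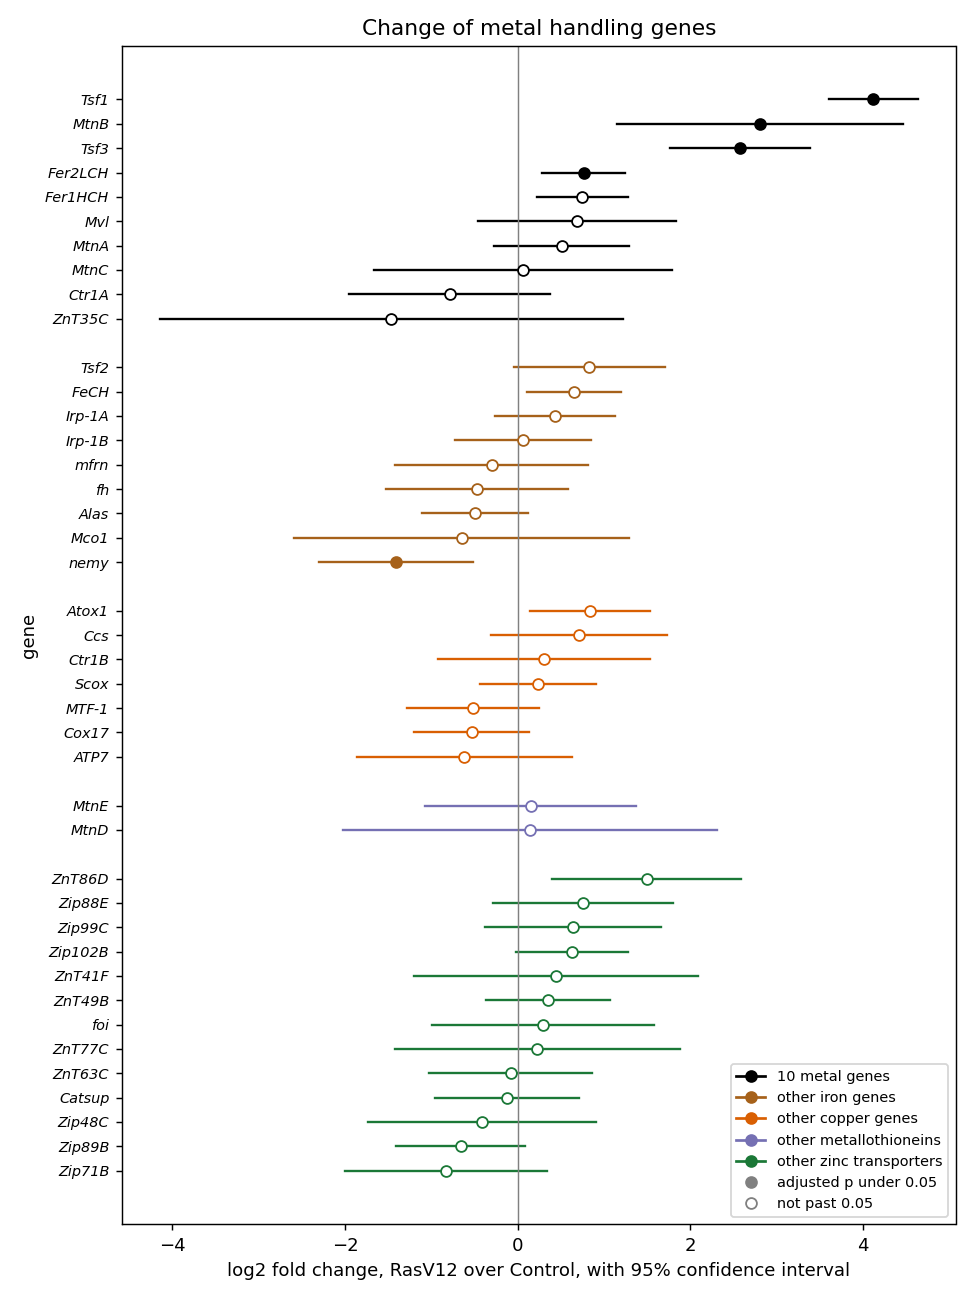
Points give the log2 fold change of each tested metal gene, *RasV12* over control, with its 95% interval from limma, for the 10 metal genes (black) and for the other iron, copper, metallothionein and zinc genes. Filled points had an adjusted p under 0.05, which were *Tsf1*, *MtnB*, *Tsf3*, *Fer2LCH* and, on the side of lower values, *nemy*.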

How the data were processed

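Adult hindguts were profiled by QuantSeq 3′ mRNA sequencing on an Ion Proton, with 3 libraries of 100 hindguts per genotype. The authors aligned reads to dm6 with hisat2 and unmapped reads with bowtie2, and compared genotypes through metaseqR2 with DESeq and its utr setting. Further counting rules, strand use and tool versions are not given in the sources used here. Each deposited value is the signal of a gene, a read count that the authors scaled by 1 factor per library and rounded. The factors, from 0.711 to 1.41, were estimated from the pattern of whole numbers from 1 to 60 and served to imply reads. Symbols and coordinates came from Ensembl 115 on BDGP6.54, which has dm6 coordinates and matched 17520 of 17617 identifiers.

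Genotypes were compared with limma (3.58.1, R 4.3.3) on log2(value + 1) of all 6 libraries with a variance trend and no covariates, two-sided, with Benjamini-Hochberg adjustment over 7155 genes. A count model was not the main test because the values are scaled. Libraries were taken as separate replicates, as labelled. The p-values rest on the spread between them, which may be technical, moderated by a variance trend over genes of similar level. With no variance trend limma's adjusted p was 0.00101 for *Tsf1*, 0.00862 for *Tsf3*, 0.204 for *Fer1HCH* and 0.154 for *Fer2LCH*. The procedure was tested on simulated data. The 10 genes, the further lists and the tests were chosen with earlier results of these data known. Genes to be named were set as the 10, the called genes and the 3 with the highest mean of the wider list, and *Ras85D*. Any other gene of the lists, *Tsf2*, *MtnD*, *MtnE*, *MtnF* and *Mco1* among them, was named after its values were seen. Alternatives were pseudocounts of 0.5 and 5, 3 rescalings, 3 filters (no filter, 10 in 3 libraries, 500 bases), no variance trend, limma-voom on deposited values and, added after the data were examined, on implied reads, the replicate number as a block, and each library left out. Tables and plots used Python 3.11.15, pandas 2.3.3, numpy 2.4.6 and matplotlib 3.10.9.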

Additional observations from a re-analysis of the deposited data

How the results depend on the processing

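*Tsf1* and *Tsf3* were called in all 18 alternative fits. The number of genes called was 1198, against 704 with no variance trend and 642 to 1292 with 1 library left out, with the lowest number without *RasV12* replicate 2 and 795 without *RasV12* replicate 1. Of the 10 metal genes, 4 were called, against 2 with limma-voom on deposited values, 2 on implied reads, and 2 to 5 with a library left out. The wider list had 1 call, against 0 with no filter, 0 with no variance trend, and 0 to 3 with a library left out. *MtnC*, at 0.07, turned to −0.067 with a pseudocount of 5 and to −0.0085 with limma-voom on implied reads, and ranged from −1.21 to 0.88 with a library left out. *MtnA* ranged from −0.037 to 0.80 with a library left out, and the log2 ratio of *Fer1HCH* to *Fer2LCH* from −0.26 to 0.12. The cause was not tested, except that leaving out a library leaves fewer samples. With the replicate number as a block, 1058 genes were called, and of the metal genes *Fer1HCH* was called besides the 4 (limma's adjusted p = 0.0496). Same-numbered libraries did not deviate together (correlations −0.05, 0.00 and −0.01 across genes), and none of the 3 *RasV12* libraries correlated best with its own number, so the numbers were not taken as pairs. *MtnB*, *ZnT35C* and *Ctr1A* rest on few reads, which limits what could be detected for them.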

Other observations

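The rows of the files fall into 6 consecutive blocks, each starting the chromosome order again. Block 2 has 6531 rows, all at 0, and block 3 has 817 rows. The authors' methods give these same numbers for genes removed before testing for lack of reads and for a length under 500. The leading block of 5562 rows held 7 of the 10 metal genes. *MtnC*, with a longest annotated transcript of 268 bases, stood in a block of 817 rows, of which 807 have a longest transcript under 500 bases. *MtnB*, at 456 bases, and *ZnT35C* stood in the last block of 1323 rows, in which every gene exceeded 9 in at least 1 library. The total of removed genes in the authors' methods matches the rows after the leading block. *MtnC*, *MtnB* and *ZnT35C* thus appear to lie among genes that the authors did not test.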
